A study of Mus musculus with 38 samples.

Results

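The genes described here build the synaptonemal complex or the meiotic form of cohesin: Tex11, Syce1, Syce2, Tex12, Sycp1, Sycp2, Sycp3, Stag3, Smc1b and Rec8. They were taken from the array by symbol, current or older, and all 10 were present among its 18300 named genes. They occupied 11 of 25344 probes, since Sycp2 had 2. They were chosen by their role in meiosis with their log2 ratios of hypomorph over pool in both tissues already known, so every ratio of a member below is a description, and no test is read from it.

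Mouse embryos hypomorphic for Dnmt3b, an enzyme that places new DNA methylation, were compared with wild-type embryos on 2-colour arrays. There were 18 arrays of thymus, from 5 hypomorphic embryos aged 18.5 days post coitum, and 20 arrays of embryonic fibroblasts, from 5 hypomorphic embryos aged 12.5 days post coitum. The other channel of each array held a pool of wild-type RNA from 5 samples of the same tissue and age. All embryos had a hybrid 129SvJae and C57BL/6 background. Thymus labels name the hypomorphic genotype m3/m24 on all but 3 arrays, and fibroblast labels carry only an embryo number, so that their genotype rests on the design text. Each embryo had 2 arrays with its RNA in Cy5 and 2 with it in Cy3, except thymus embryo 5, which had 1 of each. The 5 embryos of a tissue are taken as replicates, although the labels do not state litters or separate cultures, and p-values measure only the spread between them.

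Homologous chromosomes pair in meiosis along the synaptonemal complex, whose lateral elements hold Sycp2 and Sycp3, whose transverse filaments are made of Sycp1, and whose central element holds Syce1, Syce2 and Tex12. Sister chromatids are held together by cohesin, and germ cells exchange its mitotic subunits for Stag3, Smc1b and Rec8. Outside the germ line many such genes are normally silent, and several of their promoters carry DNA methylation in somatic cells.

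Values are log2 ratios of hypomorph over pool with each array centred on its median, so that 0 is the level of the pool and 1 is a doubling. The embryo value is the mean of its Cy5 and Cy3 arrays. No source used here states that the hypomorph is the numerator. The values make it likely but do not settle it: Eif2s3y, a Y-linked gene, reached -3.70 but no higher than 1.00 over the 10 embryos, as a ratio over a pool of both sexes would, and the sexes in the pools are not stated. With the pool as numerator every sign below would turn, above and below would change places and ranks would count from the other end, while sizes and tests would stay the same. A ratio gives no level: it cannot show whether a gene was expressed in the pool, how bright its spot was, or whether tissue markers were present. In whole tissue, fewer cells of a type and less RNA per cell cannot be told apart. The pool is 1 control sample, and its own spread enters no test. No value of the 11 member probes was missing or at a bound of the table on any array. Array medians before centring lay between -0.887 and 1.14. On 3 fibroblast arrays (arrays 2 and 4 of embryo 1 and array 4 of embryo 4) the ratios correlated below 0, on average, with the other arrays of the same embryo once the dye profile was removed, at r of -0.06, -0.19 and -0.15. Both arrays of thymus embryo 5 (r of -0.11) and array 1 of embryo 1 (-0.01) did so too.

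In thymus the members ranged from Tex11, at 3.615 times the pool, to Syce2, at 1.24-fold below it. Means of 8 of the 10 members lay above the pool, against 54.9% of all 21949 features tested. Their median was 0.29, beside 0.01 over all features. For 6 members all 5 embryos lay above the pool (3.53% of all features), and for 1, Syce2, all 5 lay below it (4.86%). None of the 10 passed limma's test over all features with Benjamini-Hochberg adjusted p under 0.05. Over all features 5 did (0.0228%), of which 4 were higher (0.0182%) and 1 lower (0.00456%). An unadjusted p under 0.05 was found for 7 members (7.49% of all features). Tex11 and Syce1 missed the threshold narrowly, each at an adjusted p of 0.053 in limma, and Tex12 stood at 0.0826. With arrays scaled to equal spread limma's adjusted p was 0.0237 for Tex11 and 0.0479 for Syce1, and with embryo weights 0.00955 and 0.00854. Under embryo weights 250 features passed, beside 5 in the main fit. Without thymus embryo 4 limma's adjusted p was 0.044 for Syce1 and 0.169 for Tex11. For both genes it was 0.24 without thymus embryo 1 and 0.0743 with ratios as deposited. Of 16 alternative settings, Syce1 passed under 6 and Tex11 under 5. Nothing is read from these member counts, because the same ratios had been seen when the members were chosen.

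Tex11, an X-linked protein of meiotic synapsis and recombination, had the highest ratio of the group in both tissues. Its thymus values were 2.20, 2.12, 1.09, 1.43 and 2.42 in embryos 1 to 5, with a mean of 1.85 ± 0.56 (SD, n = 5), the fourth highest of all features. Embryos 3 and 4 were the low ones, yet both stood above 1, and single arrays ran from 0.87 to 2.73. Without embryo 5, whose arrays correlated poorly with each other, the mean was 1.71. Fibroblast values were 0.93, 1.82, 1.38, 0.24 and 0.73, with a mean of 1.02 ± 0.61 (n = 5) or 2.03 times the pool. Embryo 4 was lowest, and the ranges of the tissues overlapped. The single fibroblast array below the pool, of 20, was array 4 of embryo 4, at -0.45, which is also an array that correlated poorly with its embryo. Without the 3 such arrays the mean was 1.04 ± 0.55 and all 17 remaining arrays lay above the pool. Sexes of the embryos are not in the labels. Eif2s3y stood at -3.43, 0.71, -0.40, 0.27 and -0.40 against the pool in thymus embryos 1 to 5 and at -1.35, -1.996, 1.00, 0.66 and -3.70 in fibroblasts. The part of sex in the ratios of X-linked Tex11 was not tested.

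The central element genes had thymus ratios of both signs. Syce1, which binds Sycp1 at the central element, had thymus values of 1.22, 1.57, 1.21, 0.72 and 1.66, with a mean of 1.28 ± 0.37 (n = 5), 2.42 times the pool and the seventh highest of all features. Embryo 4 was lowest, and all 18 arrays were above the pool, between 0.58 and 1.99. The mean without embryo 5 was 1.18. In fibroblasts Syce1 stood at 0.23, 0.49, 0.70, 0.05 and 0.11, with a mean of 0.31 ± 0.27, below every thymus embryo. Tex12, the partner of Syce2 in the central element, showed 0.39, 0.41, 0.58, 0.40 and 0.75 in thymus, with a mean of 0.51 ± 0.16 and 1.42 times the pool. All 18 thymus arrays lay above the pool for Tex12 as well, as they did for Tex11 and for 0.0957% of all features. Fibroblast values of Tex12 were 0.30, 0.22, 0.44, 0.15 and 0.14, a mean of 0.25 ± 0.12, with Cy5 arrays at 0.08 and Cy3 arrays at 0.42, and overlapped those of thymus.

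Syce2 ran the other way in thymus. Its values were -0.09, -0.52, -0.26, -0.44 and -0.25, with a mean of -0.31 ± 0.17 (n = 5), and all 18 arrays were below the pool (0.187% of all features). In fibroblasts Syce2 measured 0.32, 0.24, 0.15, -0.01 and 0.18, with a mean of 0.18 ± 0.12. Only embryo 4 was below the pool there, at a value close to 0, and every fibroblast embryo lay above every thymus embryo. Without the 3 poorly correlated fibroblast arrays embryo 4 stood at 0.03 and the mean of Syce2 at 0.20 ± 0.13. With the same arrays left out, Syce1 averaged 0.34 ± 0.26, Tex12 0.29 ± 0.14 and Sycp1 0.28 ± 0.26. Syce2 and Tex12 form one complex in the central element, and their thymus ratios had opposite signs in all 5 embryos.

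Sycp1, the transverse filament protein that zips the lateral elements together, had thymus values of 0.55, 0.81, 0.55, 0.05 and 0.67, with a mean of 0.53 ± 0.29 and 1.44 times the pool. Embryo 4 sat at the pool and the other 4 were at least 0.5 above it. The fibroblast values were 0.12, 0.00, 0.56, 0.27 and 0.05 with a mean of 0.20 ± 0.22, spread from the pool in embryo 2 to embryo 3. Thymus and fibroblast ranges of Sycp1 overlapped. The Cy5 arrays gave lower ratios than the Cy3 arrays, at 0.35 and 0.70 in thymus and 0.01 and 0.40 in fibroblasts.

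Of the lateral element genes Sycp2 lay close to the pool, and Sycp3 varied between embryos and dyes. Sycp2, a scaffold of the lateral element, stood at 0.03, 0.07, 0.07, -0.15 and 0.10 in thymus (mean 0.02 ± 0.10) and at 0.04, -0.05, 0.10, -0.17 and -0.03 in fibroblasts (mean -0.02 ± 0.10). Its 2 probes averaged -0.01 ± 0.11 and 0.05 ± 0.14 in thymus, but the second differed by dye, at -0.45 on Cy5 arrays and 0.51 on Cy3 arrays. Sycp3, which coats the chromosome axis, measured 0.46, -0.03, -0.03, -0.02 and 0.27 in thymus (mean 0.13 ± 0.23). Embryos 1 and 5 were above the pool and the other 3 at it. For Sycp3 the dye orientations stood further apart than the embryos: the Cy5 arrays averaged -0.42 and the Cy3 arrays 0.68, with none of 9 Cy5 arrays and 9 of 9 Cy3 arrays above the pool. Fibroblast values of Sycp3 were 0.08, 0.50, 0.50, -0.02 and 0.18 (mean 0.25 ± 0.24), again split by dye at -0.24 and 0.73.

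**Figure D1:**
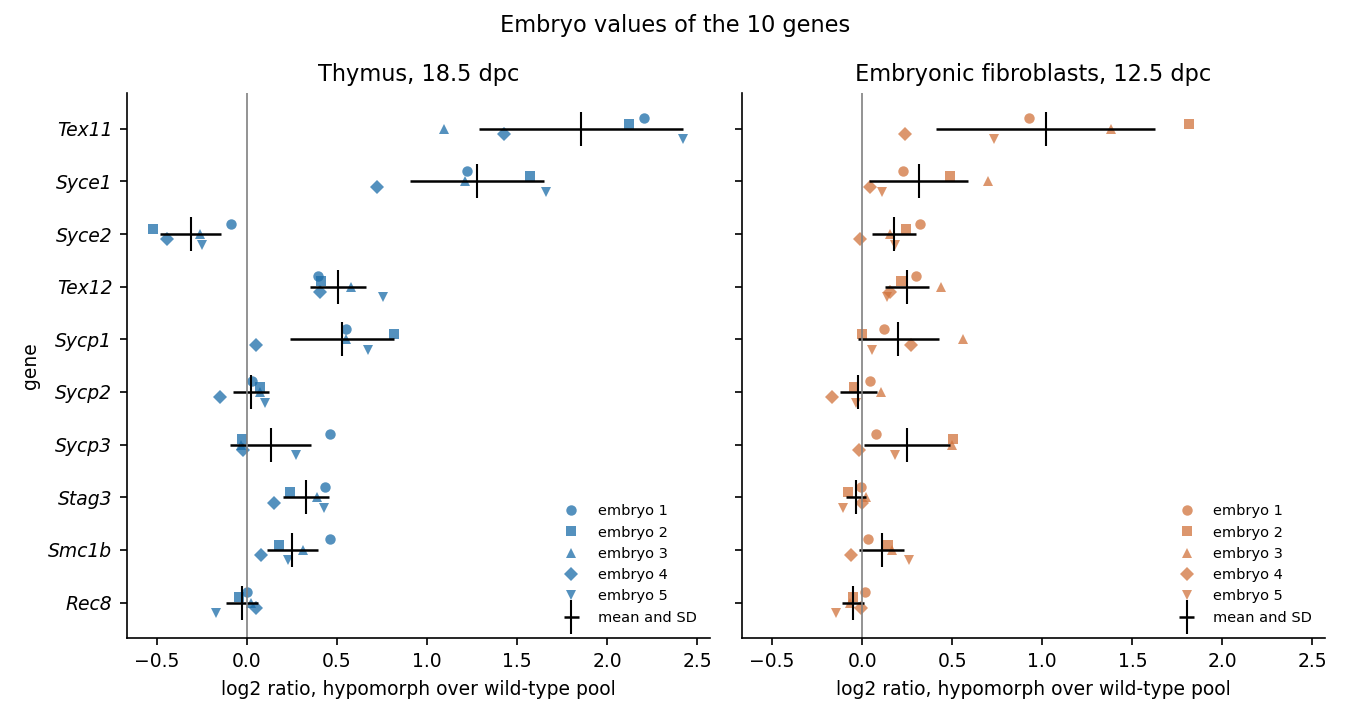
Log2 ratio of hypomorph over wild-type pool (x axis) of the 10 synapsis and meiotic cohesin genes (y axis), in thymus and in embryonic fibroblasts, with 1 point per embryo and the mean and SD over 5 embryos. Tex11 and Syce1 stand highest in thymus, at means of 1.85 and 1.28, and Syce2 is the only gene below the pool in all 5 thymus embryos.

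Of the meiotic cohesin subunits, Stag3 and Smc1b had mean thymus ratios above the pool and Rec8 did not. Stag3, the meiotic stromal antigen, had values of 0.44, 0.24, 0.39, 0.15 and 0.43, with a mean of 0.33 ± 0.13 (n = 5), a 1.25-fold excess. In fibroblasts it stood at -0.01, -0.08, 0.02, 0.00 and -0.10, a mean of -0.03 ± 0.05, and no fibroblast embryo reached the lowest thymus embryo. Smc1b, the meiotic counterpart of Smc1a, measured 0.46, 0.18, 0.31, 0.08 and 0.23 in thymus (mean 0.25 ± 0.14) and 0.03, 0.14, 0.17, -0.06 and 0.26 in fibroblasts (mean 0.11 ± 0.12). All 5 thymus embryos were above the pool for both genes, with embryo 4 lowest in each. Rec8, the kleisin that replaces Rad21, was at 0.00, -0.04, 0.02, 0.05 and -0.17 in thymus (mean -0.03 ± 0.09) and at 0.01, -0.05, -0.07, 0.00 and -0.14 in fibroblasts (mean -0.05 ± 0.06). Dye orientations differed in sign in fibroblasts for these 3 subunits. Stag3 averaged 0.05 on Cy5 and -0.12 on Cy3 arrays, Smc1b -0.22 and 0.44, and Rec8 0.19 and -0.29. In thymus Stag3 was at 0.49 on Cy5 and 0.17 on Cy3 arrays, Smc1b at 0.13 and 0.37, and Rec8 at 0.19 and -0.24, again of opposite sign.

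**Figure D2:**
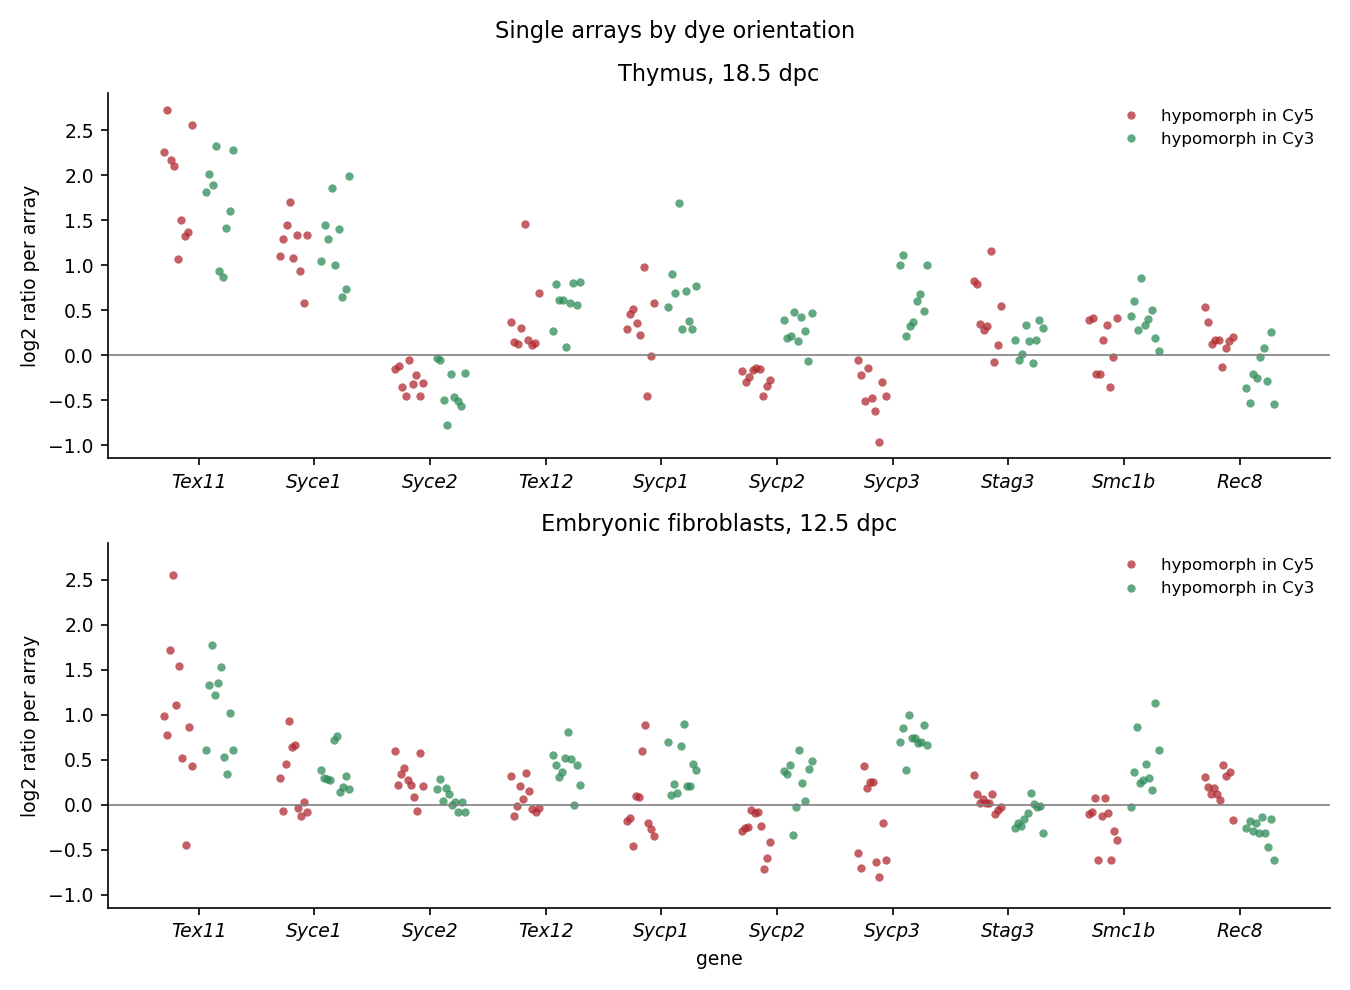
Log2 ratio of hypomorph over pool on single arrays (y axis) for each of the 10 genes, by dye orientation, in both tissues. Tex11, Syce1 and Tex12 are above 0 on all 18 thymus arrays, whereas Sycp3 splits by dye, at -0.42 in Cy5 and 0.68 in Cy3.

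Mean fibroblast ratios were above the pool for 7 of the 10 members (49.1% of 22025 features) and all 5 embryos were above it for 3 of them, Tex11, Syce1 and Tex12 (7.8%). No member lay below the pool in all 5 (9.01% of features), and none was above it on all 20 arrays (0.0636%) or below it on all 20 (0.118%). None passed limma's adjusted test and 1 feature of the table did (0.00454%). Adjusted limma p-values of Tex11, Syce1, Syce2 and Tex12 were 0.166, 0.251, 0.223 and 0.159, and were 0.000406, 0.0107, 0.0174 and 0.00548 when single arrays entered with the embryo as a random block. That setting enters the repeat arrays of an embryo with a correlation shared by all features. Under it 2052 features passed, beside 1 over embryo values, and nothing is read from it for the members. Over embryo values 5 members had an unadjusted p under 0.05, as did 16% of all features. The median over members was 0.19, beside -0.00 over all features. For 5 members in fibroblasts, and 3 in thymus, either dye orientation lay further from the embryo mean than that mean lay from 0.

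Thymus minus fibroblast ratios were highest for Syce1 (0.96) and Tex11 (0.83), and lowest for Syce2 (-0.49). In between came Stag3 at 0.36, Sycp1 at 0.33 and Tex12 at 0.26, while the other 4 lay between -0.12 and 0.14. The tissues did not overlap for 3 genes, Syce1, Syce2 and Stag3 (3.95% of 21852 features). Thymus was the higher tissue for Syce1 and Stag3 (1.91% of features) and the lower for Syce2 (2.04%). None of the 10 passed limma's adjusted test of the difference, which 90 features did (0.412%), and 6 had an unadjusted p under 0.05 (15.4%). Syce1, Syce2 and Stag3 each missed the threshold at an adjusted limma p of 0.0529. Without array 4 of fibroblast embryo 4 their adjusted limma p was 0.0356, 0.0317 and 0.04, and with embryo weights 0.0115, 0.0473 and 0.00994. Under these settings 291 and 787 features passed. Without fibroblast embryo 4 altogether Syce2 passed at 0.0261 and Stag3 at 0.0454, while Syce1 was at 0.053. Leaving out fibroblast embryo 1 put Syce1, Syce2 and Stag3 at 0.152, 0.15 and 0.144, and leaving out embryo 2 at 0.117, 0.143 and 0.143. On Cy5 arrays alone they were at 0.134, 0.12 and 0.336. Nothing is read from these p-values for the members, because their ratios in both tissues had been seen when they were chosen. The tissues also differ in age and in pool, which cannot be told apart from tissue.

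**Figure D3:**
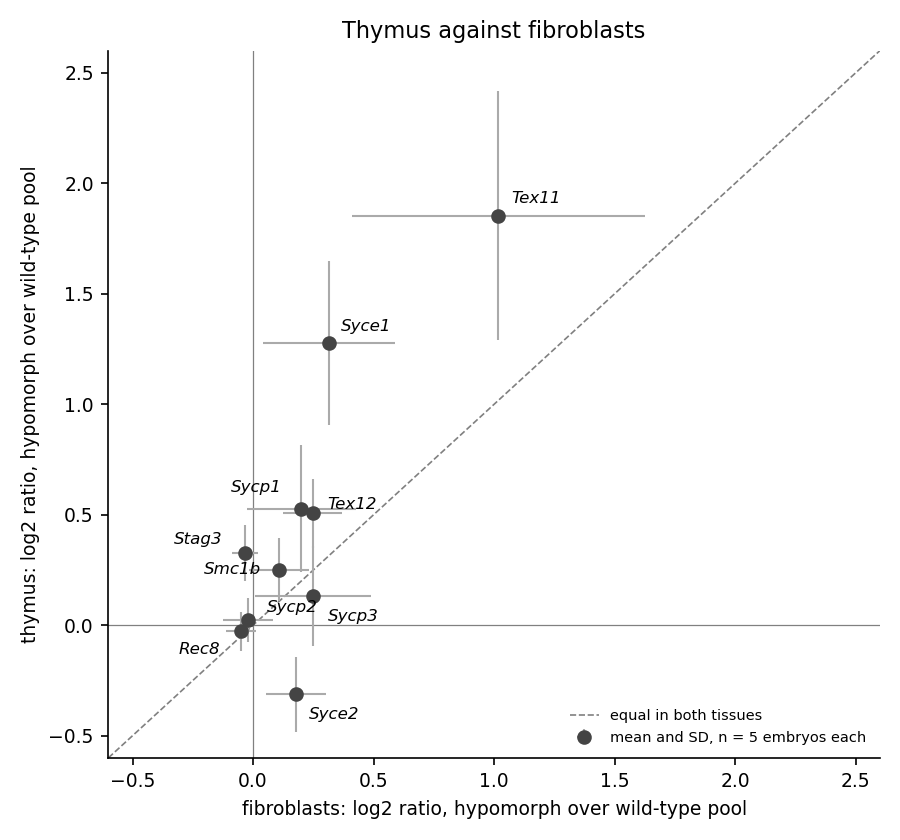
Mean log2 ratio of hypomorph over pool in thymus (y axis) against fibroblasts (x axis) for each member, with SD bars over 5 embryos each and the line of equality dashed. The means of Tex11 and Syce1 lie above the line and that of Syce2 below it, and the embryo ranges of Tex11 overlap between the tissues.

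Embryos did not rank alike across the members, but embryo 4 was often low. It was the lowest thymus embryo for 5 genes (Syce1, Sycp1, Sycp2, Stag3 and Smc1b), and the lowest fibroblast embryo for 6 (Tex11, Syce1, Syce2, Sycp2, Sycp3 and Smc1b). The embryos that share this number are different animals of different ages. Over all features fibroblast embryo 4 had the narrowest spread, with an SD of 0.157 beside 0.229 to 0.347 in the other embryos. In thymus the SD of embryo 4 was 0.212, beside 0.195 to 0.248. Array 4 of fibroblast embryo 4 was also among the poorly correlated arrays. How often other features were lowest in embryo 4 was not counted, and the part of the spread in this order was not tested. Median ratios over the members were 0.45, 0.21, 0.35, 0.07 and 0.35 in thymus embryos 1 to 5, and 0.10, 0.18, 0.30, -0.00 and 0.12 in fibroblasts. Thymocyte markers, of which 11 of 12 were measured, had medians of -0.23, 0.18, -0.21, 0.08 and -0.23 in the thymus embryos. On average 3 of the 11 lay above the pool (54.9% of all features) and 8 below it. The medians of the 8 thymic epithelium markers were -0.05, 0.03, -0.04, 0.04 and -0.14. Thus embryos 2 and 4, with the lowest member medians, had the highest thymocyte medians. This order did not hold for every member: embryo 2 was the highest for Sycp1 and the lowest for Syce2. Tex11 (2.124) and Syce1 (1.572) stood above their means there, and Tex12 (0.412), Stag3 (0.24) and Smc1b (0.18) below theirs. The part of cell composition in the ratios was not tested. Summed over the list, thymocyte log2 ratios ran from -4.67 to 3.19 over the thymus embryos, and the lowest marker was Dntt at -0.80 ± 1.12. Cd3d lay below the pool in all 5 thymus embryos (-0.21 ± 0.04, 4.86% of all features) and Ptcra above it (0.12 ± 0.06, 3.53%). Both changed sign with the dye. Cd3d was at 0.025 on Cy5 and -0.436 on Cy3 arrays, and Ptcra at 0.38 and -0.15. Of 9 fibroblast markers, 2 lay above the pool in thymus (54.9% of all features) and 7 below it. Col1a2 (-0.37 ± 0.29), Col3a1 (-0.30 ± 0.28) and Lum (-0.13 ± 0.15) lay below it in all 5 embryos (4.86% of all features). The part of these stromal markers in the thymus ratios was not tested. In fibroblasts the 9 markers had a median of 0.22, from -0.56 (Col1a1) to 1.40 (Dcn), with sums of 0.31 to 7.76.

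Genes that work with these proteins were followed as lists, also assembled with earlier results known. The mitotic partners of the meiotic cohesins gave 12 measured genes of 13. In thymus 9 lay above the pool (54.9% of all features) and 3 below, with a median of 0.19. Only Stag1, a mitotic counterpart of Stag3, was above the pool in all 5 thymus embryos (3.53% of all features), at 0.29 ± 0.24. Stag2 averaged 0.23 ± 0.51, Smc1a 0.09 ± 0.21 and Rad21 0.25 ± 0.35. The list's embryo medians were 0.02, 0.53, -0.11, 0.32 and 0.05, so that they were highest in embryos 2 and 4, where Stag3 and Smc1b were lowest. Fibroblasts had 8 of the 12 above the pool (49.1% of all features) and a median of 0.12. In all 5 embryos 4 did so (7.8%): Smc3 at 0.13, Rad21 at 0.22, Pds5b at 0.19 and Nipbl at 0.37. Pds5a lay below it in all 5, at -0.11 ± 0.12. The extremes were Nipbl (-0.42 ± 0.45) and Esco2 (0.32 ± 0.33) in thymus, and Stag2 (-0.18 ± 0.20) and Sgo1 (0.45 ± 0.42) in fibroblasts. No mitotic gene passed limma's adjusted test in either tissue, and 3 in thymus and 5 in fibroblasts had an unadjusted p under 0.05, beside 7.49% and 16% of all features.

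Other synapsis and recombination genes had medians near those of all features. Of 28 measured genes of 40, 21 lay above the pool in thymus (54.9% of all features) with a median of 0.03, beside 0.01 over all features. Mael, a germ cell protein of the piRNA pathway, averaged 0.58 ± 0.19 with all 18 arrays above the pool. Rec114, which acts in forming meiotic DNA breaks, averaged 0.44 ± 0.18, and Hormad2, a protein of the chromosome axis, 0.17 ± 0.08. Hormad2 changed sign with the dye, at 0.406 on Cy5 and -0.057 on Cy3 arrays, and Rec114 did not (0.399 and 0.479). Fibroblasts had 17 of the 28 above the pool (49.1% of all features), a median of 0.01, and 7 did so in all 5 embryos (7.8%). Psmc3ip and Mnd1, partners of the strand exchange proteins in recombination, averaged 0.66 ± 0.46 and 0.54 ± 0.27, and Tex15, a germ cell protein required for meiosis in male mice, averaged 0.46 ± 0.30. The same genes in thymus were at -0.01, 0.07 and 0.14. None of the 28 passed limma's adjusted test in either tissue, and 3 and 6 had an unadjusted p under 0.05, beside 7.49% and 16% of all features.

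E2f6 and its complex repress meiotic genes in somatic cells, Stag3 and Smc1b among the targets described for it in mouse. Of the 14 complex genes measured, 10 lay above the pool in each tissue, beside 54.9% of all features in thymus and 49.1% in fibroblasts. Their medians were 0.03 in thymus and 0.05 in fibroblasts. None passed limma's adjusted test, and 2 and 3 had an unadjusted p under 0.05, beside 7.49% and 16% of all features. The complex genes ranged from -0.14 for Max to 0.22 for Ezh2 in thymus and from -0.29 for Cbx3 to 0.26 for Ezh2 in fibroblasts. Ezh2 and Tfdp2 (0.20 ± 0.14) were above the pool in all 5 thymus embryos. In all 5 fibroblast embryos Rnf2 (0.15 ± 0.08) and Tfdp1 (0.08 ± 0.06) were above it and Tfdp2 (-0.14 ± 0.09) below it. Dye orientations differed in sign for Tfdp1 in fibroblasts, at 0.375 on Cy5 and -0.214 on Cy3 arrays. Tfdp2 did so in fibroblasts (-0.471 and 0.185) and in thymus (-0.03 and 0.423). Rnf2 in fibroblasts (0.218 and 0.076) and Ezh2 in thymus (0.28 and 0.163) kept their sign.

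**Figure D4:**
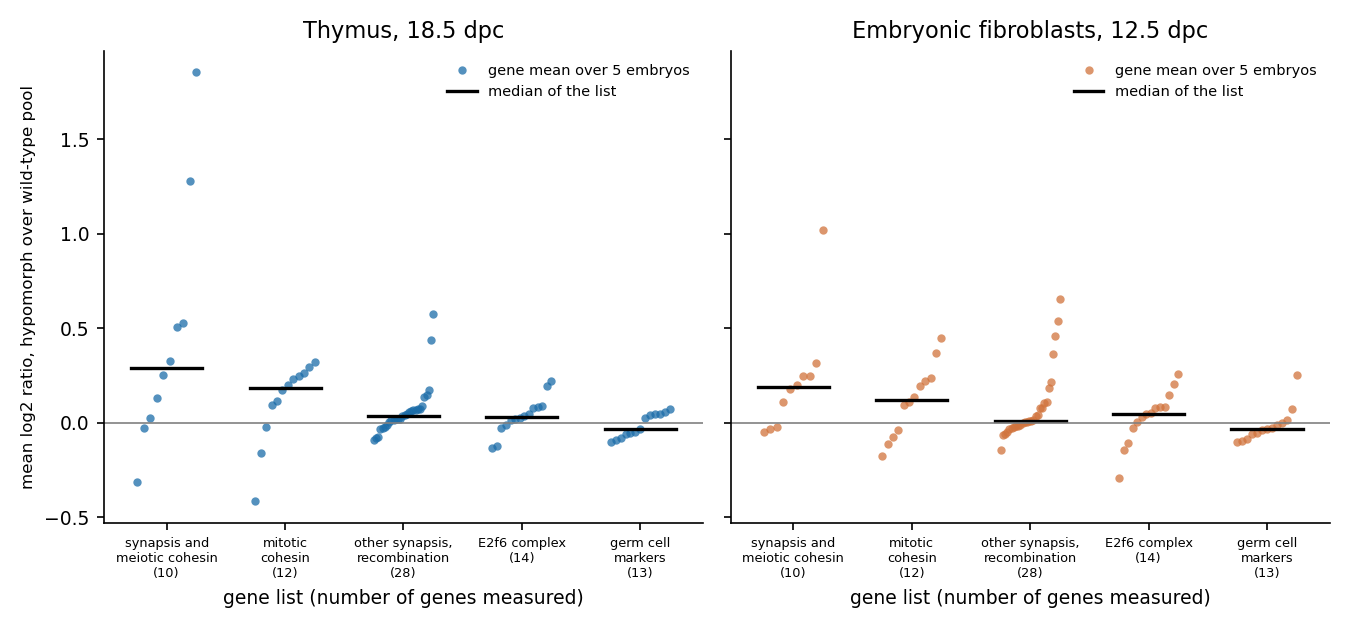
Mean log2 ratio of hypomorph over pool (y axis) of each measured gene of 5 lists (x axis), in thymus and fibroblasts, with the number of genes measured and a bar at the list's median. The medians are 0.29 and 0.19 for the synapsis and meiotic cohesin genes and -0.03 in both tissues for the germ cell markers.

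Germ cell markers had list medians of -0.03 in both tissues, with single exceptions. Of 14 such genes 13 were measured, 6 lay above (54.9% of all features) and 7 below the pool in thymus, and their means ran from -0.10 (Utf1) to 0.07 (Sall4). In fibroblasts 3 were above (49.1% of all features) and 10 below, from -0.10 (Tfap2c) to 0.25 (Utf1). No marker passed limma's adjusted test. An unadjusted p under 0.05 was found for 0 in thymus and 2 in fibroblasts, beside 7.49% and 16% of all features. In all 5 fibroblast embryos Utf1 lay above the pool (0.25 ± 0.18, up to 0.42), Nanos3 above it at 0.07 and Tfap2c below it, and Pou5f1 lay below the pool in all 5 thymus embryos at -0.06. Pou5f1 in thymus averaged -0.31 on Cy5 and 0.187 on Cy3 arrays, and Nanos3 in fibroblasts 0.164 and -0.025. Utf1 (0.395 and 0.111) and Tfap2c (-0.013 and -0.191) kept their sign in fibroblasts. Single embryos reached 0.66 for Sall4 (thymus embryo 5) and -0.57 for Dazl (fibroblast embryo 3). Their summed log2 ratios ran from -1.15 to 0.43 over the thymus embryos and from -0.39 to 0.01 over the fibroblast embryos. Embryo medians of the list were 0.00, 0.00, -0.02, -0.09 and -0.02 in thymus, and -0.01, -0.05, 0.01, -0.01 and 0.00 in fibroblasts. The 8 markers of gonadal somatic cells had medians of 0.02 in thymus and -0.02 in fibroblasts. Among them Fst, an inhibitor of activin, averaged -0.65 ± 0.30 in fibroblasts, below the pool in all 5 embryos and down to -1.16, Nr5a1 averaged -0.07 with all 5 below, and Sox9 0.21 ± 0.45. Nr5a1 changed sign with the dye there, at 0.165 on Cy5 and -0.309 on Cy3 arrays, and Fst did not (-0.274 and -1.03). None of the 8 passed limma's adjusted test. An unadjusted p under 0.05 was found for 0 of them in thymus and 1 in fibroblasts, beside 7.49% and 16% of all features. A gene silent in both hypomorph and pool also reads about 0 on this scale.

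Over all 10 embryos the genes nearest to Tex11 by root mean square difference, among 18148 named genes, were Slc25a31 at 0.47, Gpat2 at 0.60 and 8030474K03Rik at 0.64. Slc25a31, a mitochondrial carrier, averaged 2.23 in thymus and 1.16 in fibroblasts. Nearest to Syce1 were Taf7l at 0.29, 3830403N18Rik at 0.47 and 8030474K03Rik at 0.49. Taf7l, a germ cell relative of a general transcription factor subunit, averaged 1.25 ± 0.34 and 0.46 ± 0.29. Around Sycp1 lay Nsmaf at 0.22, Xlr at 0.26 and Myof at 0.26. Xlr is an X-linked gene related to Sycp3, and it averaged 0.44 ± 0.28 in thymus and 0.28 ± 0.13 in fibroblasts. These distances describe likeness of ratios only.

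The nearest measured gene on each side of every member gave 20 genes, of which 7 were above the pool in thymus (median -0.02) and 11 in fibroblasts (median 0.01). Over all features 54.9% and 49.1% were above it. Means of these chromosomal neighbours ran from -0.19 to 0.29 in thymus and from -0.30 to 0.16 in fibroblasts. Beside Tex11, Dlg3 averaged 0.29 ± 0.58 and Slc7a3 -0.03. Beside Syce1, Cyp2e1 averaged -0.15 ± 0.04 and Urah -0.05. The difference between members and neighbours was not tested.

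The proximal promoters of the members differ in CpG content, and CpG is the target of DNA methylation. RefSeq windows on GRCm38.p6 of 250 bases before and 50 after the start were available for 9 of the members, 10 windows in all since Syce2 had 2, and the 10 held more CpGs than the median window of 32851, which held 7. They ranged from 10 for Sycp2 to 33 for a Syce2 window, with 30 for Stag3, 29 for Smc1b, 26 for Tex12, 21 for Sycp1 and 14 for Syce1. Searched on both strands for TCCCGC, the core letters of an E2F site, 8 windows of 7 genes held it against 20.0% of all windows, and 49.4% of windows with 20 CpGs or more. CACGTG, an E-box, was in 5 windows of 5 genes against 7.2% and 11.6%. A match is a description of the letters and not of binding. The 250 bases before the start are printed 5′ to 3′ for 8 members, in order of their thymus ratios and for Syce2 from 1 of its windows, with either motif in capitals (GCGGGA is TCCCGC on the other strand). The window of Sycp3, which held both motifs, is not printed. Motifs of Sycp1, Stag3 and Syce2 that touch or follow the start fall outside the printed bases. The start is that of the RefSeq window and can lie inside the RefSeq span of the gene. The printed bases of Stag3 lie wholly inside its span (chr5:138272514-138312397), and those of Rec8, Sycp2 and Syce2 partly inside theirs.
Syce1 promoter, chr7:140787855-140788104, minus strand: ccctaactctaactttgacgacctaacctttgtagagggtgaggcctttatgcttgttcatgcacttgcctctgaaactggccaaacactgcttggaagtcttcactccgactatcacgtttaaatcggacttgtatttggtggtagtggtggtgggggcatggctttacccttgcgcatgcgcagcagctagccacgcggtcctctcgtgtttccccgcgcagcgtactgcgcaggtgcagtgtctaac
Sycp1 promoter, chr3:102936101-102936350, minus strand: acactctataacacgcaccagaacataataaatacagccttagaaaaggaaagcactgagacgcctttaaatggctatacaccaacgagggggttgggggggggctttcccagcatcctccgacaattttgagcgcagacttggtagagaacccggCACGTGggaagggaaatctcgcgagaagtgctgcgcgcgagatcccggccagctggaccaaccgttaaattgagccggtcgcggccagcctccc
Tex12 promoter, chr9:50561269-50561518, minus strand: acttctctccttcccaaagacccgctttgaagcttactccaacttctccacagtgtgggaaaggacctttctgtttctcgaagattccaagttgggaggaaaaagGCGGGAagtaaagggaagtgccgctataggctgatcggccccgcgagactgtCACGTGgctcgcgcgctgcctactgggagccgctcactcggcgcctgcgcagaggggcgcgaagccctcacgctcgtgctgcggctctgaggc
Stag3 promoter, chr5:138280259-138280508, plus strand: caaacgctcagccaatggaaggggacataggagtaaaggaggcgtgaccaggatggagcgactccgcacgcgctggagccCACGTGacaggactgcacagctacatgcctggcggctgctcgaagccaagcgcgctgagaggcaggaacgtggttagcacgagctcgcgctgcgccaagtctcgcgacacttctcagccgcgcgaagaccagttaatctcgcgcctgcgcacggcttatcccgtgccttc
Smc1b promoter, chr15:85131958-85132207, minus strand: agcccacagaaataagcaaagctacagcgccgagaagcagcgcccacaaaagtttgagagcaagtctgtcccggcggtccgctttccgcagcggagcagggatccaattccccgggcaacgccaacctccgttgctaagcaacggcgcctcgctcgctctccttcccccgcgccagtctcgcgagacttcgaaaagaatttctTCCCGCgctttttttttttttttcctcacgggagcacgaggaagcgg
Sycp2 promoter, chr2:178407659-178407908, minus strand: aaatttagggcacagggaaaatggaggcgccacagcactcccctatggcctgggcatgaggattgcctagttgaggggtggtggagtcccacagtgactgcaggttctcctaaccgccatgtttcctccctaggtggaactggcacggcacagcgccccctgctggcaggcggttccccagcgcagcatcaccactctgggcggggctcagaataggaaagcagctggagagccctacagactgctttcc
Rec8 promoter, chr14:55617916-55618165, plus strand: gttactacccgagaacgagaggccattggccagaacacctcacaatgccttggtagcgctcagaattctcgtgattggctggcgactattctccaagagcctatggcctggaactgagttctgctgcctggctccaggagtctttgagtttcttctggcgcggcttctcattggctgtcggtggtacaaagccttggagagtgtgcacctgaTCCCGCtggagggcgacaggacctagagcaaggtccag
Syce2 promoter, chr8:84872008-84872257, plus strand: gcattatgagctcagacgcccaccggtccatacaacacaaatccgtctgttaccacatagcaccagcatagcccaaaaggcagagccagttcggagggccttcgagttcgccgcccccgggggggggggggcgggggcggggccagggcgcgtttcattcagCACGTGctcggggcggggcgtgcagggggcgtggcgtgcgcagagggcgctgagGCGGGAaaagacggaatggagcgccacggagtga

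Syce1, with the second highest thymus ratio, and Sycp2, at the pool, both lacked the E2F letters. Tex12 and Smc1b, with thymus means of 0.51 and 0.25, held them 145 and 47 bases before the start. Rec8, at the pool, held them 38 bases before the start and Syce2, with the lowest thymus ratio, in both of its windows. Sycp1, Stag3 and Sycp3, with thymus means of 0.53, 0.33 and 0.13, held them as well. Whether these letters go with the ratios was not tested.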

How the data were processed

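Total RNA was amplified, labelled and hybridised with dye swaps, and 2 thymus arrays were left out by the submitters for quality, per the series' design text. The deposited table holds 1 log2 ratio per probe and array. The software that read the scans, any background step and any normalization by the authors are not stated in the sources used here. Scanner intensities were not used, so dim spots and batches could not be examined. Its values end at 16.61: the upper bound was reached 445 times on Cy5 arrays and the lower 423 times on Cy3 arrays, so the 2 orientations had already been turned the same way. This leaves the numerator unsettled, and hypomorph over pool was taken as likely from Eif2s3y. Values at a bound were left out, arrays were centred on their medians, and embryo values averaged Cy5 and Cy3 arrays equally. Symbols came from the platform annotation (21111 probes with 1, 4233 with none), updated through RefSeq for 3974 probes, and probes of 1 symbol were averaged. Features needed a value in all 5 embryos.

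Tests used limma 3.58.1 in R 4.3.3 (lmFit and eBayes, two-sided, Benjamini-Hochberg over all features), each tissue against 0 and thymus minus fibroblasts over 10 embryos. The fit was tested on simulated data. Other steps used Python 3.11.15, pandas 2.3.3, numpy 2.4.6 and matplotlib 3.10.9. The members, gene lists and tests were chosen with earlier results of these data known. Named were all 10 members, up to 3 genes per list and tissue with the same sign in all embryos and the largest means, those mitotic counterparts the text uses (the rule allows all), and the 3 genes nearest to Tex11, Syce1 and Sycp1. Other genes named, such as list extremes and neighbours, were chosen after their values were seen. Same-numbered embryos of the tissues correlated between -0.04 and 0.09, so the numbers do not pair them.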

Additional observations from a re-analysis of the deposited data

Results flagged for a closer look

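Sycp2 in thymus embryo 4 stood at -0.15, apart from the other 4 embryos, which lay between 0.03 and 0.10. The gap to its nearest neighbour was larger than Dixon's 95% critical value of 0.71 allows for 5 samples. It was the 1 such value among 20 gene and tissue groups, and chance flags about 1 group in 20.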

How the results depend on the processing

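Tests passed by 5 features in thymus, 1 in fibroblasts and 90 for the difference moved with the settings. Left as deposited the counts were 1, 8 and 17. Scaled arrays gave 13 and 2 by tissue, quantile normalization 5 in fibroblasts and 157 for the difference, and medians over arrays 3, 7 and 141. Cy5 arrays alone gave 4881, 6298 and 0 and Cy3 arrays alone 5244, 8145 and 285. Features in 3 or more embryos, or bounds kept, gave 0 in fibroblasts, and every probe tested alone gave 9 in thymus. Embryo weights gave 250 and, for the difference, 787. Without the 3 thymus arrays lacking a genotype 9 passed, without the 3 fibroblast arrays 7, and without array 4 of fibroblast embryo 4 83 and 291. Single arrays with the embryo as a random block gave 407, 2052 and 1554, and turning the sign on Cy3 arrays 9106 and 11313. Leaving out 1 embryo gave 0 to 4, 0 to 38 and 1 to 374. With the embryo number as a replicate block 1 feature passed for the difference. The causes of these changes were not tested. Tex11, Syce1, Syce2, Tex12 and Sycp1 kept their sign in both tissues under every setting but the turned sign, and Tex11 ranged over 1.71 to 2.04 in thymus and 0.82 to 1.21 in fibroblasts. Cy5 arrays alone changed the sign of Sycp3 in both tissues and of Stag3, Smc1b and Rec8 in fibroblasts, and the signs of Sycp2 in both tissues and Rec8 in thymus changed under several settings. Alternatives also brought members past the adjusted threshold: in thymus Syce1 under 6 of 16, Tex11 under 5, Tex12 under 4, Syce2 and Sycp1 under 3 each and Stag3, Smc1b, Sycp2 and Sycp3 under 2 each, and in fibroblasts Tex11 under 3 of 17, Syce1, Syce2, Tex12 and Sycp2 under 2 each and Sycp1, Sycp3, Smc1b and Rec8 under 1 each, among them the settings with 1 dye only and single arrays as a random block. On arrays of 1 dye only, dye effects do not cancel. In thymus Sycp2 passed at -0.25 on Cy5 arrays and at 0.30 on Cy3 arrays, and Sycp3 at -0.42 and 0.68. Nothing is read from these passes, since the ratios were known when the members were chosen. At the counts of 0, limma's unadjusted p was under 0.05 for 1103 features or more. Depth and signal over background are unknown, and the number of arrays limits precision.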

Other observations

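In thymus 21 features were above the pool on all 18 arrays, and 41 were below it on all 18. Beside Tex11, Syce1 and Tex12, the first set held Rpl39l at a mean log2 ratio of 2.36, Slc25a31 at 2.23, Gpat2 at 1.42 and Mael at 0.58, genes with known roles or high expression in the male germ line. It also held Myof at 0.68 and Pgam2 at 0.60. Syce2 belonged to the second set, which was led by H2bu2 at -1.11 and Grp at -0.87. These genes were chosen after their values were seen, and no test was made of the sets. In fibroblasts 14 features were above the pool on all 20 arrays, led by Cdkn1c, an imprinted growth inhibitor, at 0.71 and Mnd1 at 0.54, and none of the synapsis and meiotic cohesin genes was among them.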
